A study of Mus musculus with 4 samples.

Results

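Cytokine signaling genes, 10 in all, were described across 4 lines of L1210, a mouse lymphocytic leukemia cell line: the kinase Jak2, the transcription factors Stat3, Stat5a and Stat5b, the feedback inhibitors Socs1, Socs2, Socs3 and Cish, and the kinases Pim1 and Pim2. The members were all probes of the array whose gene symbol in the deposited table was one of these 10 genes. They came to 15 probes, of 55681 gene probes and 24561 gene symbols on the array. All 4 lines were infected with lentivirus and sorted for GFP+ cells by flow cytometry. L1210-Fbxw11a carried the full-length transcript of Fbxw11, the F-box protein that picks the substrates of an SCF ubiquitin ligase. L1210-Fbxw11c and L1210-Fbxw11d carried shorter splice variants of it, with 1 and 2 internal exons left out, and L1210-control carried none. The vector named in the methods drives its insert from the EF1α promoter, and whether a line is a pool or 1 clone is not given in the sources used here. The lines are named below by their insert, as control, Fbxw11a, Fbxw11c and Fbxw11d. Total RNA of each was read on 1 Agilent 1-color array. There are thus no replicates, and differences are given without p-values.

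Cytokine receptors without a kinase of their own signal through Janus kinases such as Jak2, which sit on the receptor tail and phosphorylate it once a ligand binds. STAT proteins dock there, are phosphorylated, pair up and move to the nucleus, where they switch on target genes. Socs and Cish genes are among these targets, and their proteins shut the receptor down again, so their transcripts are widely used as a readout of the pathway. Pim1 and Pim2 are further targets, whose kinases keep blood cells alive and dividing, and both were first found as oncogenes of mouse lymphoma.

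The arrays differed in brightness, with a 75th percentile of the signal of 620.2 to 672 on 3 arrays and 954 on the Fbxw11d array. Each signal was therefore taken as log2 relative to that percentile of its own array, and signals below are on the control scale, in arbitrary units. The first 3 arrays shared a slide and that of the Fbxw11d line was on another, and in this line variant and slide cannot be told apart. On the scaled values, 10 E1A spike-in probes read -0.59 ± 0.13 (SD) relative to control on the Fbxw11d array, on the log2 scale, and 0.15 ± 0.12 and 0.10 ± 0.15 on the Fbxw11a and Fbxw11c arrays. Of 12 B-lineage markers, 6 were well above background on all arrays, with Blnk, an adaptor of the B-cell receptor, at 18268 in control, while Cd79b, Ebf1, Igll1, Rag1, Rag2 and Ms4a1 were not well above background on any. The T-cell genes Cd4 and Cd3e and the myeloid genes Itgam and Cd68 were also read on all 4 arrays, 8 of 12 T-lineage and 7 of 11 macrophage markers in all, as were 6 of 12 fibroblast and stromal markers. Of these lists, 2 genes passed 2-fold in the same direction in all 3 variant lines. Cd28, a costimulatory receptor of T cells, was read at 192 in control and at 74.2 to 85.7 in the variant lines, and Col1a2, a collagen chain, at 888 in control and at 2419, 3819 and 3688 in Fbxw11a, Fbxw11c and Fbxw11d. With normexp background correction, Cd28 stayed short of 2-fold in Fbxw11a and Fbxw11c, at log2 ratios of -0.79 and -0.86. This setting adds an offset of 50 to each signal, which shrinks the ratios of dim probes. A dim call that falls short under it, here or below, is therefore not decided by it. The summed signal of the B-lineage markers was 18808 in control and 21413 to 23616 in the variant lines, and that of the macrophage markers 14756 and 11247 to 12458. It was 4912 and 4735 to 5106 for the T-lineage and 34426 and 33093 to 38710 for the stromal markers. The part of these differences in the results below was not tested, and in RNA of a whole line fewer cells of a type and less RNA per cell cannot be told apart.

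No member reached a 2-fold difference from control in any of the 3 variant lines. In Fbxw11a, 0 of 9 members compared did so, where 4.45% of the 17929 genes compared were called. In Fbxw11c it was 0 of 9, with 3.88% of 17734 genes called, and in Fbxw11d 0 of 10, with 5.75% of 18437. Genes read above background on either array count as compared, so the tenth member in Fbxw11d, Stat5b, is among them without a fold. Nor did any member reach 1.5-fold, a size that 10.8%, 9.87% and 14.7% of all genes reached in the 3 lines in the same order. The median log2 ratio of the 9 members measured on both arrays was -0.081 in Fbxw11a, -0.076 in Fbxw11c and 0.026 in Fbxw11d, beside 0.0061, 0.017 and 0.022 over all genes. The median size of the log2 ratio, sign left aside, was 0.18, 0.12 and 0.14 for the members and 0.15, 0.15 and 0.21 for all genes. The value of the members thus lay above that of all genes in Fbxw11a and below it in Fbxw11c and Fbxw11d. These gaps were smaller than the scanner error of a ratio, given below. The sets also differ, since the values over all genes include genes read on only 1 of the arrays.

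**Figure D1:**
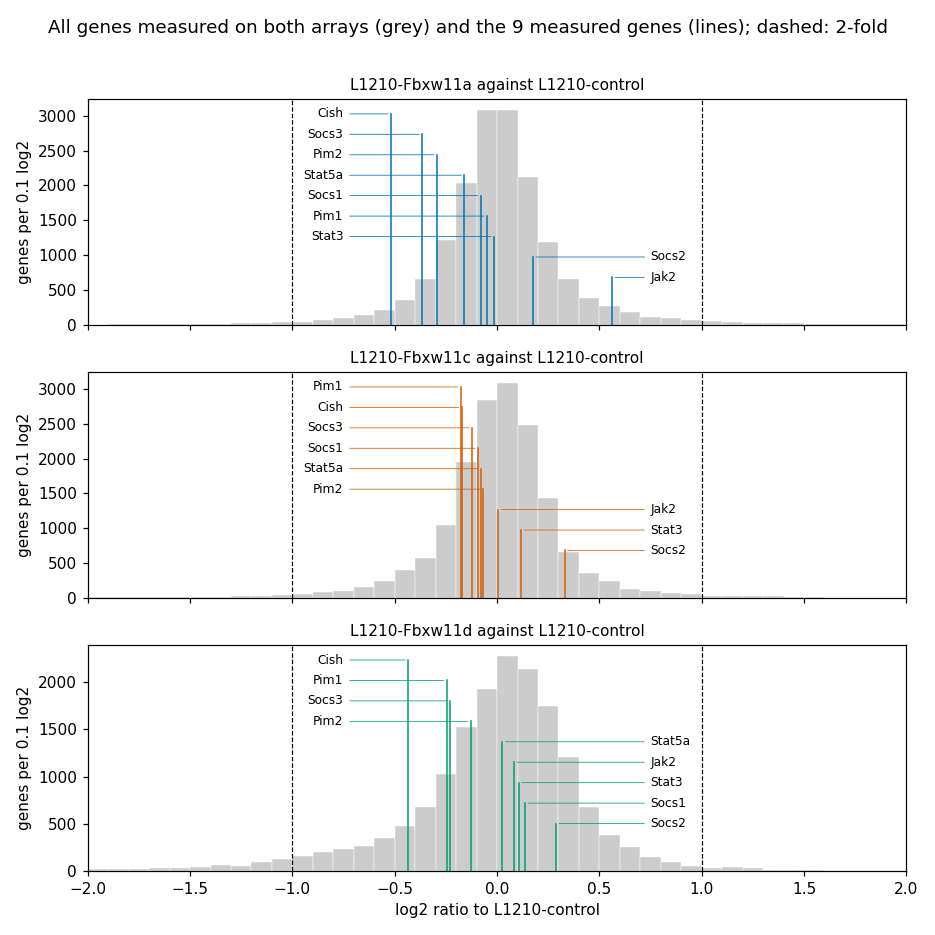
Number of genes per 0.1 of log2 ratio to control (grey bars, genes well above background on both arrays) in each variant line, with the 9 measured members as colored lines and dashed lines at 2-fold. All members lie inside the dashed lines, from -0.52 for Cish to 0.56 for Jak2 in Fbxw11a.

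A finer scale than 2-fold was the error that the scanner software gives for a spot, set at 10% of the signal plus a small additive part. For a ratio of 2 arrays the combined error was 0.20 to 0.22 (log2) for every member probe measured on all 4 arrays, and a pair of lines was called apart when it differed by more than 2 such errors. This error leaves out culture, sorting and RNA extraction. By this rule 2 of 9 members, Cish and Jak2, were apart from control in Fbxw11a, where 12.0% of all genes were. In Fbxw11c 0 of 9 were, beside 11.1% of all genes, and in Fbxw11d 1 of 9, Cish, beside 20.8%.

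Jak2, the kinase that serves the receptors for erythropoietin, thrombopoietin and growth hormone, gave the widest range of the 9 measured members. Its probe lies on chromosome 19 of the mm9 build, from 29387487 to 29387546 on the plus strand, and begins at base 4946 of the transcript. The signal was 2875 ± 288 (scanner error) in control, 4246 ± 425 in Fbxw11a, 2887 ± 289 in Fbxw11c and 3048 ± 305 in Fbxw11d. Fbxw11a thus stood alone above 3 lines that lay close together. The log2 ratio to control was 0.56 in Fbxw11a, a 1.48-fold difference, and 0.0060 and 0.084 in the other lines. Jak2 was also apart between the variant lines, by 0.56 from Fbxw11c and by 0.48 from Fbxw11d, and was the only 1 of 9 members so in either pair, beside 11.7% and 21.7% of all genes. With a single spot per array, whether that one reading would repeat cannot be judged.

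Stat3, which carries the signals of the interleukin 6 family, was read by a probe printed on 10 spots, at 100749598 to 100749657 of chromosome 11, minus strand. Its signal was 3561 in control, 3525 in Fbxw11a, 3868 in Fbxw11c and 3832 in Fbxw11d. The spots of 1 array had an SD of 0.047, 0.072, 0.063 and 0.069 (log2, n = 10 spots each) in the same order. The log2 ratios were -0.015, 0.12 and 0.11, all within the scanner error, and the spots of all 4 lines overlapped. A second Stat3 probe was read at 105, 96.0, 102 and 85.1 in the same line order. Its log2 ratios were -0.13, -0.036 and -0.30, so the probes differed in direction in Fbxw11c and Fbxw11d, with no value beyond 2 errors on either. In Fbxw11c the sign of the second probe turned with quantile normalization, centring on the median and the authors' normalized values.

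Stat5a, a STAT protein of the prolactin, interleukin 2 and interleukin 3 receptors, was read at 668, 598, 634 and 680 in control, Fbxw11a, Fbxw11c and Fbxw11d, on chromosome 11 at 100746373 to 100746432, plus strand. Its log2 ratios of -0.16, -0.076 and 0.026 were all within the scanner error, and the lines did not separate. The near-identical paralog Stat5b had 2 probes, at 100642045 to 100642104 and 100642187 to 100642246 on the minus strand. The first was well above background only in Fbxw11d, at 15.4 ± 2.6, with 10.4 ± 4.0, 6.1 ± 3.2 and 15.1 ± 3.5 in control, Fbxw11a and Fbxw11c, and gave no fold. The second stayed near background throughout, with no array well above it. Without gaps, these probes matched the Stat5a probe at no more than 26 of 60 bases and shared 0 stretches of 9 bases with it.

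**Figure D2:**
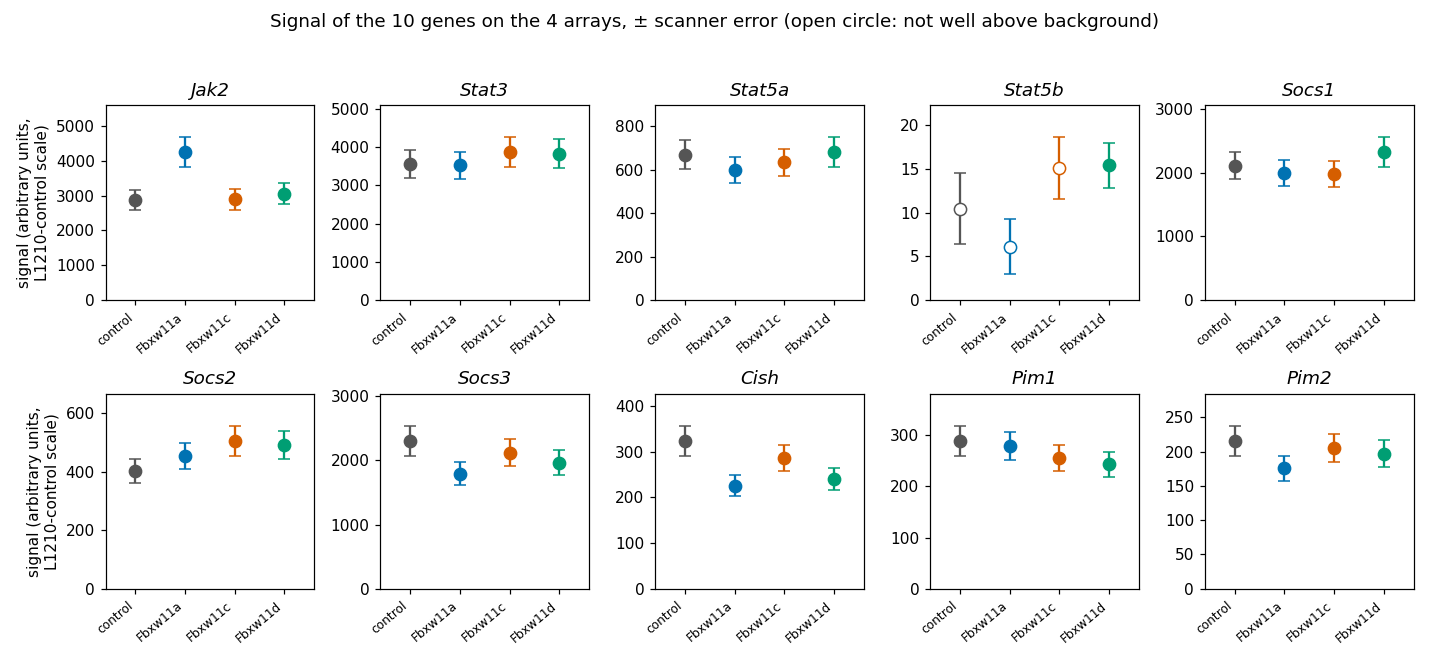
Signal of the brightest probe of each of the 10 genes (vertical axis from 0, arbitrary units on the control scale) in the 4 lines, 1 array each, with bars for the scanner error and open circles where the probe was not well above background. Jak2 stands out in Fbxw11a at 4246, Cish is lowest in Fbxw11a at 226, and Stat5b is near the background in every line.

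Among the inhibitors, Socs1, which blocks the kinase itself and is a main brake on interferon signaling, was read at 2113 in control, 1998 in Fbxw11a, 1981 in Fbxw11c and 2324 in Fbxw11d. The log2 ratios of -0.081, -0.093 and 0.14 were within the scanner error. Fbxw11d lay above Fbxw11a and Fbxw11c by 0.22 and 0.23, more than the scanner error but short of 2 errors. No pair of lines was thus apart for Socs1, on a probe at 10783951 to 10784010 of chromosome 16, minus strand.

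Socs2, a brake on growth hormone receptor signaling, gave ratios above 0 in every variant line on each of its 3 measured probes, all on the minus strand of chromosome 10 between 94875066 and 94875527. The probe printed on 10 spots gave 402 ± 40.4 (scanner error) in control, 454.5 ± 45.6 in Fbxw11a, 506 ± 50.7 in Fbxw11c and 491 ± 49.2 in Fbxw11d. Its spots ran from 372 to 442 in control, from 420 to 532 in Fbxw11a, from 463 to 571 in Fbxw11c and from 459 to 541 over 9 spots in Fbxw11d. The Fbxw11c and Fbxw11d spots therefore lay wholly above those of control, while the Fbxw11a spots overlapped them. The spots of an array share 1 labeled RNA and are not replicates of a line. Over the 3 probes, the log2 ratios ran from 0.17 to 0.19 in Fbxw11a, from 0.28 to 0.33 in Fbxw11c and from 0.26 to 0.30 in Fbxw11d, none beyond 2 errors. With centring on the median those in Fbxw11d were 0.48 to 0.52, beyond 2 errors on all 3 probes. The order of the lines was the same on all 3 probes, Fbxw11c first, then Fbxw11d, Fbxw11a and control. The remaining Socs2 probe, of a predicted transcript and at 94848005 to 94848064, stayed near background on all 4 arrays.

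**Figure D3:**
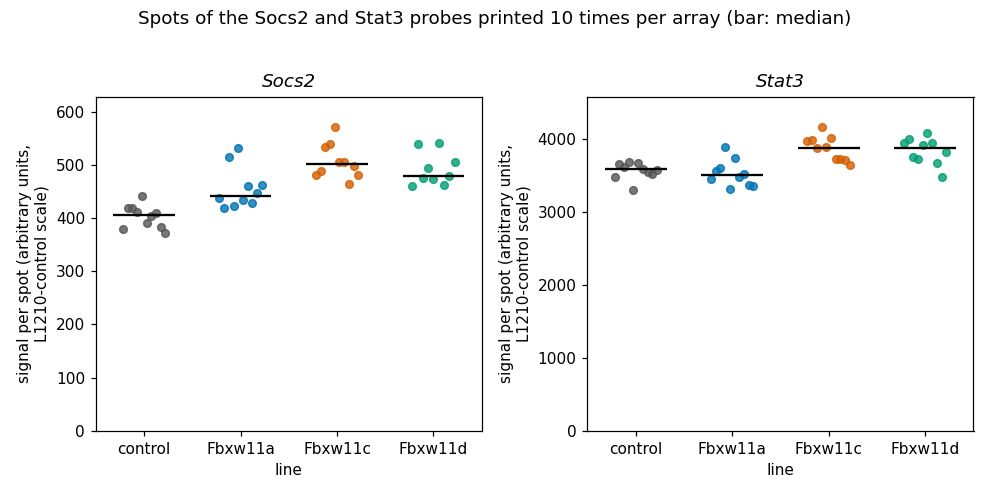
Signal of each spot of the Socs2 and Stat3 probes printed 10 times per array (vertical axes from 0, arbitrary units on the control scale), with a bar at the median of each line. The medians for Socs2 are 406, 442, 501 and 479, and for Stat3 3583, 3502, 3883 and 3873, in the order control, Fbxw11a, Fbxw11c and Fbxw11d.

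Socs3, the brake on interleukin 6 and granulocyte colony-stimulating factor signaling, gave ratios below 0 in all 3 variant lines, with a signal of 1789 in Fbxw11a, 2119 in Fbxw11c and 1963 in Fbxw11d beside 2304 in control. The log2 ratios of -0.36, -0.12 and -0.23 did not pass 2 errors. The probe lies at 117827480 to 117827539 of chromosome 11, minus strand. Cish, the founding member of the family and a target of Stat5, had the lowest ratio of the 9 measured members in Fbxw11a and Fbxw11d, while in Fbxw11c Pim1 was marginally lower. It was read at 323 ± 32.5 in control, 226 ± 22.8 in Fbxw11a, 286.5 ± 28.8 in Fbxw11c and 239 ± 24.0 in Fbxw11d, on chromosome 9 at 107204196 to 107204255, plus strand. The control and Fbxw11c lines were the higher lines, and Fbxw11a and Fbxw11d the lower ones. Cish was 1.43-fold lower than control in Fbxw11a and 1.35-fold lower in Fbxw11d, with log2 ratios of -0.52 and -0.43, and its log2 ratio in Fbxw11c was -0.17. The Fbxw11d ratio was -0.22 with centring on the median, which moved the median of all genes in this line by 0.22 on the log2 scale, and was then no longer beyond 2 errors. In Fbxw11a the smallest ratio was -0.41, with normexp background correction, also just short of 2 errors. Among the inhibitors, all Socs2 ratios were thus above 0 and all Socs3 and Cish ratios below it, while those of Socs1 were mixed. With the scaling used here only Cish passed 2 errors, in Fbxw11a and Fbxw11d, so the other signs are a description only.

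Pim1, which phosphorylates the death-promoting protein Bad and cell cycle inhibitors, was read at 289 in control, 279 in Fbxw11a, 255 in Fbxw11c and 243 in Fbxw11d. Its log2 ratios of -0.049, -0.18 and -0.25 were all below 0 and within 2 errors, and the first was at 0.00025 with normexp background correction. Pim2, a kinase of the same family that also promotes protein synthesis, was read at 215, 176, 206 and 197 in the same line order, on the X chromosome at 7459678 to 7459737, plus strand. It was lowest in Fbxw11a, with log2 ratios of -0.29, -0.067 and -0.13, also within 2 errors. With centring on the median, the sign of Pim2 turned in Fbxw11c and Fbxw11d.

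The letters of 2 probes are shown because they are the stretch of RNA that each reading stands for. Each of them holds at least 1 reading frame without a stop codon, and that they are coding was taken from knowledge of these proteins and not from an annotation. They are the first Socs2 probe (chromosome 10, 94875468 to 94875527, minus strand) and the Pim1 probe (chromosome 17, 29630740 to 29630799, plus strand), as deposited, 5′ to 3′, with no part marked.
Socs2: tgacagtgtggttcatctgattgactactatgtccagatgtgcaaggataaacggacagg
Pim1: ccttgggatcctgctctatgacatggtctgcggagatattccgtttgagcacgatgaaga

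**Figure D4:**
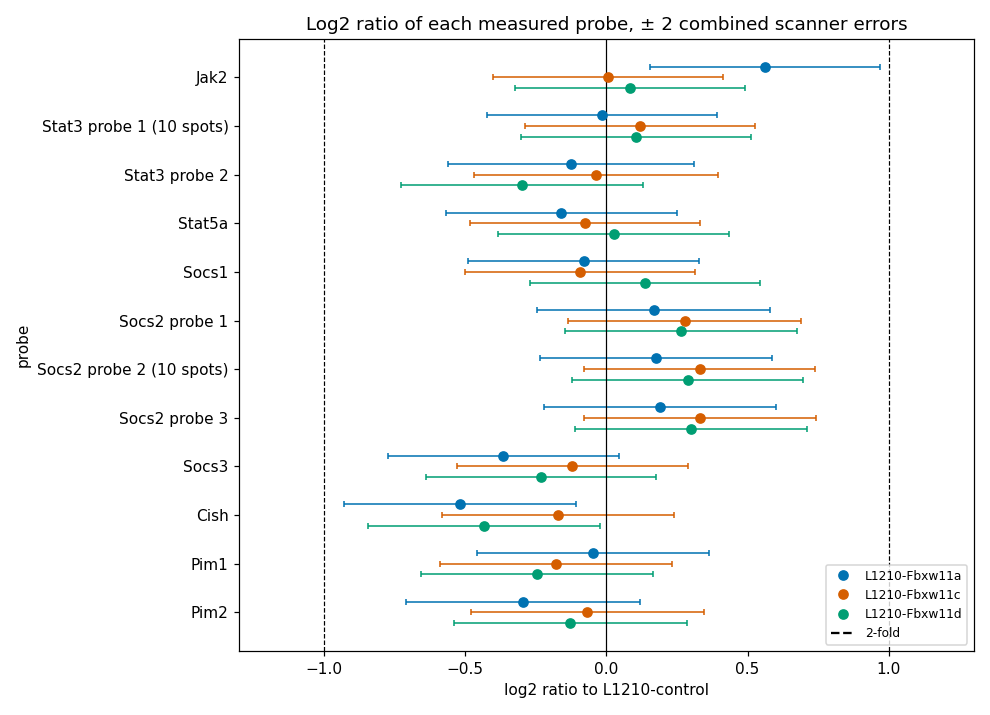
Log2 ratio to control (horizontal axis) of each of the 12 probes measured on all 4 arrays, 1 point per variant line, with bars of 2 combined scanner errors and dashed lines at 2-fold. The bars exclude 0 for Jak2 in Fbxw11a and for Cish in Fbxw11a and Fbxw11d, and cross it elsewhere.

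Ordering the 4 lines by level gave 36 neighboring pairs over these 12 probes, and 1 of them was apart, Jak2 in Fbxw11a above Fbxw11d. Of all 72 pairs 5 were apart, 3 of Jak2 and 2 of Cish. For Socs3, Cish and Pim2 the order was the same, with control highest, then Fbxw11c, Fbxw11d and Fbxw11a. Since no neighbors in these orders differed by more than 2 errors, and all ratios share the single control array, the orders are a description only. Between Fbxw11c and Fbxw11d 0 of 9 members were apart, beside 15.9% of all genes.

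STAT pairs bind DNA at sites of the general form TTCNNNGAA, and some, above all Stat6, at a longer form with 1 more free base in the middle. Both forms read the same on either strand. They were searched in the promoters of the members from RefSeq (GRCm38.p6, 250 bases before to 50 after the start), which covered 9 of the 10 genes, all but Socs2. TTCNNNGAA was in 8.3% and the longer form in 6.95% of all 32851 promoters of this length. Cish held TTCNNNGAA 2 times, from bases 1 and 12 after the start, and Socs3 held it 1 time, from base 154 before the start, and the other 7 members held neither form in this window. The stretches are shown with the matches in capitals, for Cish at chr9:107296654-107296683 (plus strand) and for Socs3 at chr11:117969501-117969530 (minus strand).
Cish: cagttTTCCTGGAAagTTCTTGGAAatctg
Socs3: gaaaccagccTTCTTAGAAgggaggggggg
Over the 3 variant lines the log2 ratios ran from -0.52 to -0.17 for Cish and from -0.36 to -0.12 for Socs3. Of the members without a match, Pim1 and Pim2 were also all below 0, Jak2 was all above it, and Socs1, Stat3 and Stat5a were mixed. Over all genes with TTCNNNGAA the median log2 ratios were 0.0071, 0.0066 and 0.0076 in Fbxw11a, Fbxw11c and Fbxw11d. They were 0.0085, 0.022 and 0.035 for genes with any promoter. A part of the motif in the member ratios was not tested. A match is a run of letters and not a measured binding site.

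The rest of the pathway was described from 6 lists with 103 genes on the array. At 2-fold, 1 gene was higher and 5 were lower in Fbxw11a, of 89 compared (6.74%), 3 higher and 5 lower in Fbxw11c, of 86 (9.3%), and 0 higher and 5 lower in Fbxw11d, of 90 (5.56%). The shares over all genes were 4.45%, 3.88% and 5.75%, so that in Fbxw11d the pathway lay at the background. With outlier spots kept, the calls over all genes were 440 higher and 363 lower in Fbxw11a and 287 and 402 in Fbxw11c. In Fbxw11d they were 196 and 866, and 400 and 583 with centring on the median, so the lean to lower calls there varied with the scaling. The median log2 ratios of the pathway genes, -0.073, -0.0027 and 0.0039, were as near 0 as those of the members. Genes with fewer than all 3 lines called and no signal over 100 are named here only because the counts are small, after their values were seen.

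The ligands held most of the calls in Fbxw11a and Fbxw11d and 4 of 8 in Fbxw11c, with 4 genes lower in each line. Ifnb1, the antiviral interferon β, was read at 410.2 in control and was not well above background in the variant lines, which makes it at least 28.6-fold, 27.6-fold and 39.4-fold lower in Fbxw11a, Fbxw11c and Fbxw11d. Il6, the ligand that acts through Stat3, was read at 104 in control and was at least 7.22-fold lower in Fbxw11a, at least 6.98-fold lower in Fbxw11c and 7.22-fold lower in Fbxw11d. In Fbxw11a 1 of its 2 spots was well above background, and its mean signal of 13.6 lay under the limit of 14.4 that sets the bounds on this array, so its fold there is given against this limit. With normexp background correction the log2 ratios were smaller, -2.60, -2.69 and -3.20 for Ifnb1 and -1.14, -1.29 and -1.56 for Il6, so the bounds hold only for the background correction of the scanner software. The colony-stimulating factors were dimmer. Csf2, at 74.7 in control, was at least 5.20-fold lower in Fbxw11a, and 3.31-fold and 4.05-fold lower in the other lines, while Csf3, at 76.3, was at least 5.31-fold, 5.14-fold and 7.34-fold lower. The folds of both were smaller with normexp background correction, which took Csf2 to log2 ratios of -0.93 and -0.76 in Fbxw11a and Fbxw11c and Csf3 to -0.97 in Fbxw11a. Lif, Il11, Il15, Osm and Il3, the ligands with the highest mean log2 signals over the 4 arrays, stayed under 2-fold, with log2 ratios from -0.93 for Osm in Fbxw11c to 0.10 for Il3 in Fbxw11d. Il9 was at least 2.79-fold higher in Fbxw11a, and its log2 ratio was 0.59 with normexp.

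Of 32 receptors, 28 were read above background by all arrays, and calls were few. The brightest, Csf3r, the receptor of the Csf3 protein, was read at 56408, 52954, 59142 and 43289 in control, Fbxw11a, Fbxw11c and Fbxw11d. Il15ra, Crlf2, Ifngr1 and Il6ra lay between -0.24 and 0.29 on the log2 scale in all 3 lines. Il2rg, the common γ chain, gave log2 ratios of 0.56, 1.14 and 0.089, and Il10ra, an interleukin 10 receptor chain, -0.98, -1.04 and 0.37. Past 2-fold in Fbxw11c were thus Il2rg, 2.20-fold higher, and Il10ra, 2.05-fold lower, at signals of 66.7 and 23.2. With normexp these log2 ratios were 0.41 and -0.46, short of 2-fold, but at such signals its offset shrinks a ratio by itself. Il10ra in Fbxw11c also fell short with quantile normalization, centring on the median and the authors' values, at -0.96 to -0.95. Of the partner kinases, Tyk2 gave log2 ratios of -0.28, -0.53 and -0.62, the last beyond 1.5-fold but at -0.38 with normexp and -0.40 with centring on the median. Jak1 and Jak3 lay between -0.28 and 0.20, and Stat2 and Stat6 between -0.12 and 0.33. Stat4 was well above background only in Fbxw11c, at 55.6, which is at least 3.07-fold higher than control, beside a log2 ratio of 0.55 with normexp.

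None of the 14 other inhibitors, among them Socs7, Pias1, Ptpn2, Ptpn11 and Sh2b3, was called at 2-fold in any line. Of all genes, 4.45%, 3.88% and 5.75% were called in Fbxw11a, Fbxw11c and Fbxw11d. Socs5, named after its values were seen, was read at 928 in control, with log2 ratios of 0.36, 0.44 and 0.63. The last was the only value of this list past 1.5-fold, and those in Fbxw11c and Fbxw11d were beyond 2 errors. Sh2b3, the adaptor that restrains Jak2, gave log2 ratios of 0.42, 0.018 and 0.042, the first of which was 0.27 with the mean of all its probes. Of the Pim substrates, Foxo3, a transcription factor of cell cycle arrest, was lower, at 98.6 in control and 49.1, 51.2 and 30.8 in the variant lines, past 2-fold in Fbxw11a and Fbxw11d, though with log2 ratios of -0.52 and -0.95 there with normexp. Bad, Cdc25a, Cdkn1b, Cdkn1a and the third Pim kinase, Pim3, lay between -0.52 and 0.41. Among the STAT targets, the survival genes Bcl2l1 and Mcl1 and the growth gene Myc ran from -0.31 to 0.066, and Ccnd1, cyclin D1, was at 0.28, 0.16 and 0.44. At 1.5-fold, 2 of the 21 targets with a ratio were higher and 2 lower in Fbxw11a, 1 higher and 2 lower in Fbxw11c, and of 20 in Fbxw11d 0 were higher and 2 lower, where 10.8%, 9.87% and 14.7% of all genes passed this size in either direction. The higher ones were Ccnd2 in Fbxw11c and, in Fbxw11a, Fos at a log2 ratio of 0.70 and Irf7 at 0.72, with 0.33 and 0.20 for Fos and 0.46 and -0.059 for Irf7 in the other lines. The lower ones, like the higher ones named after their values were seen, were the transcription factor Cebpd in all 3 lines, at 3874 in control and with log2 ratios of -0.90, -0.74 and -0.87, Bcl3 in Fbxw11a and Fbxw11d, and Bcl6 in Fbxw11c. Bcl3, a regulator of NF-κB, read -0.86, -0.43 and -0.61, and Bcl6, a transcriptional repressor, -0.41, -0.63 and -0.46. With centring on the median Bcl3 in Fbxw11d was at -0.40 and Bcl6 in Fbxw11c at -0.56, both then short of 1.5-fold, as Bcl6 also was with normexp, at -0.57. Timp1, an inhibitor of matrix proteases, lay between 0.0078 and 0.17. Ccnd2, cyclin D2, was called in Fbxw11c, at 125.5 beside 6.7 and not well above background in control, at least 6.94-fold higher, with a log2 ratio of 1.15 with normexp.

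**Figure D5:**
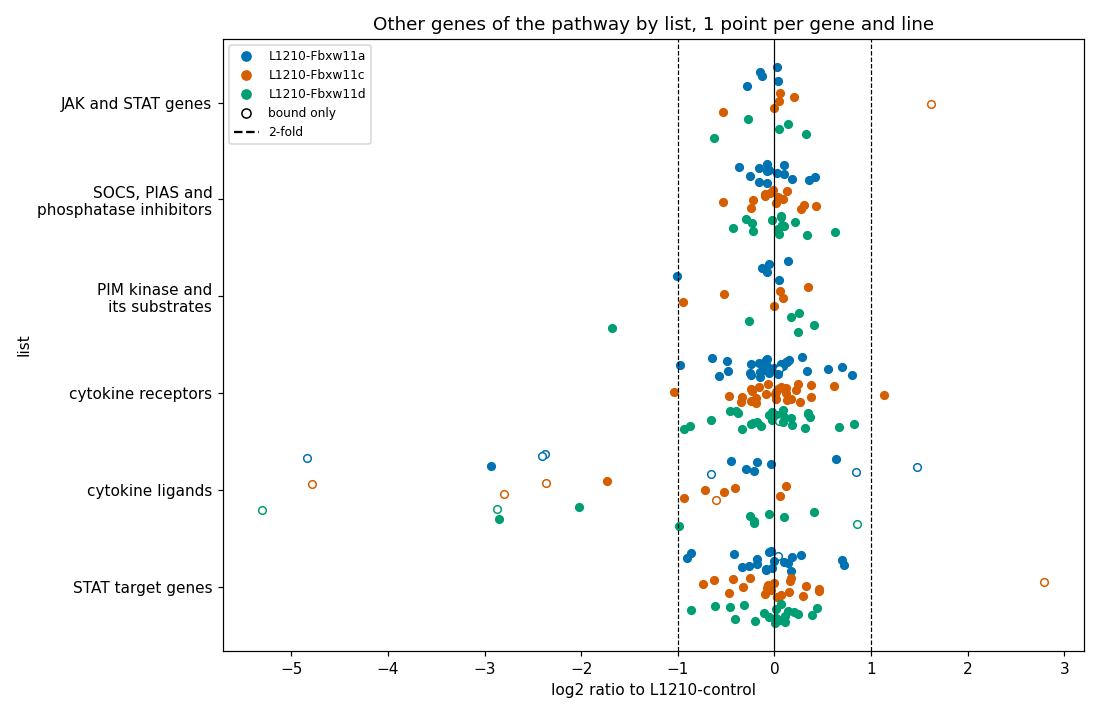
Log2 ratio to control (horizontal axis) of the other genes of the pathway in 6 lists, 1 point per gene and variant line, open where the value is only a bound, with dashed lines at 2-fold. The points left of -1.7 are all ligands, Ifnb1, Il6, Csf2 and Csf3, and the other lists lie almost wholly inside the dashed lines.

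The genes whose pattern over the 4 arrays was most like that of Jak2, by Euclidean distance of the gene-centered log2 values among 16248 other genes well above background on all arrays, were Stard6, Ppp3cc, Gm8221, Pxdc1 and Tmbim1, at distances of 0.033 to 0.054. Because they were chosen for this likeness, each was higher in Fbxw11a and near control in the other lines. Their log2 ratios ran from 0.52 for Ppp3cc to 0.57 for Gm8221 in Fbxw11a, and from -0.036 to 0.091 in the other variant lines. The choice of these 5 is loose, since 194 genes, 1.19% of those compared, lay within a distance of 0.20 of Jak2, the size of its combined scanner error.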

How the data were processed

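Total RNA of 4 L1210 lines was labeled with Cy3 and hybridized to 1 Agilent mouse array each. The authors deposited the scanner output, with a background-corrected signal intensity and flags per spot, and a table of log2 values normalized across the arrays, with symbols and mm9 coordinates. The files were made with Feature Extraction 10.7.1.1 per the file headers, and the submitters' processing notes name version 9.1. The deposited flags (other values) mark outliers and spots well above background. Here log2 signals minus the 75th percentile of each array were used. Control spots and outlier spots (102 to 167 per array) were left out, no gene spot was saturated, and replicate spots were averaged. The background flag of a probe was that of 0.5 or more of its spots. A gene was represented by its brightest probe. Where only 1 of 2 arrays read a probe, the fold is a bound, against the higher of the probe's own signal and the lowest signal, on the other array, of a probe with all spots well above background. A gene was called at 2-fold. With 1 array per line, their number limits the precision.

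The members and lists were chosen with earlier results of these data known. Named were all members, list genes called in all 3 lines and those called in fewer with a signal over 100. The 5 brightest of each list were named too, as were the 5 genes nearest in pattern to Jak2, the measured member of widest range. Alternatives were normexp background correction (offset 50) and quantile normalization in limma 3.58.1 (R 4.3.3), centring on the median, the authors' log2 values, other filters on dim probes, outlier spots kept, thresholds of 1.5-fold and 3-fold, and the mean of a gene's probes. Python 3.11.15, numpy 2.4.6 and pandas 2.3.3 were used, and calling was tested on simulated data. The exon and UTR annotation of the probes was not analysed here. Probe sequences other than the 2 printed are not reported here.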

Additional observations from a re-analysis of the deposited data

How the results depend on the processing

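The count of members called at 2-fold was 0 in each line under all 10 alternatives run. The median log2 ratio of the members in L1210-Fbxw11d was 0.24 with centring on the median, against 0.026, and the median of all genes was 0.24 under that setting, a shift of 0.22. In the other lines, and under the other settings in this line, it moved by less than the scanner error. Of 252 recomputed member values, 12 moved by more than their error, all 12 in L1210-Fbxw11d with centring on the median. Of 36 member ratios, 7 turned sign under at least 1 alternative, the largest of them at 0.13 in size. The count of pathway genes called went from 6, 8 and 5 (Fbxw11a, Fbxw11c and Fbxw11d lines) to 17, 15 and 16 at 1.5-fold, to 2, 4 and 4 with normexp and to 2, 3 and 3 when both arrays had to be well above background. No replicate could be left out, and no paired analysis was possible because each line has 1 array. Depth is not counted on an array, and the limit is signal over background, which touched Stat5b, 1 Socs2 probe, the dim ligands, and Stat4 and Ccnd2.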
